A study of Mus musculus with 8 samples.

Results

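Phase II conjugation enzymes were examined in the m6ARIP-seq peak lists of mouse liver. They were chosen by gene symbol, as the genes whose name began with Gsta, Gstm, Gstp, Gstt, Gstk, Gsto, Gstz, Mgst, Ugt1, Ugt2, Ugt3, Sult, Nat1, Nat2 or Nat8. In the Wtap flox/flox list they held 48 of 15635 peaks (32 of 9020 genes), and in the Wtap-HKO list 38 of 19185 peaks (29 of 10634 genes). A list of peaks that differed between the genotypes held 25 of their rows among 3870. In all, 36 enzyme genes had at least 1 peak, of 11558 genes with a peak in either genotype. The prefix Nat1 also caught Nat10, an RNA cytidine acetyltransferase, and Nat14, which are not arylamine N-acetyltransferases. Both were counted and are named where they occur.

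The livers came from mice on normal chow, 8 weeks old, of 2 genotypes, labelled C57BL/6 and given as C57BL/6J in the methods. Wtap flox/flox mice carried the floxed Wtap alleles without Cre, and Wtap-HKO mice carried the same floxed alleles with Cre under the albumin promoter, which deletes Wtap in hepatocytes and leaves it in the other cells of the liver. Each genotype had 2 IP libraries and 2 input libraries (8 in all), each replicate pooled from 5 mice. The replicates were combined in every list, so no SD, no read depth and no test across replicates could be had here. Each peak carries the authors' false discovery rate for IP over input, but the ratios between the genotypes given below have no test, and whether they exceeded the replicate spread could not be asked. In whole liver, fewer cells of a type and less RNA per cell cannot be told apart.

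Conjugation is the second step of detoxification. Glutathione S-transferases attach glutathione to electrophiles, UDP-glucuronosyltransferases attach glucuronic acid to bilirubin, steroids, bile acids and drugs, sulfotransferases transfer sulfate, and N-acetyltransferases transfer an acetyl group. Hepatocytes are the main site of these reactions. m6A is methylated adenosine within mRNA, written by the METTL3-METTL14 complex that WTAP anchors, mostly within a GGAC core or close relatives of it. Antibodies to m6A also bind m6Am, a related base that can stand next to the cap.

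To show the transcript starts at which peaks lay, the first transcribed bases of 8 genes are printed from the RefSeq windows of GRCm38.p6. The letters are DNA in the sense of the RNA, 5′ to 3′. The 8 genes were picked to show starts with and without the core among those covered by a peak. Capitals mark GGAC. The 5′ peaks of Ugt1a9 began at base 22 in both genotypes and the Wtap flox/flox peak of Gstk1 at base 31, so that part or all of the stretch lay outside them.
Gstk1, chr6:42245935-42245964, plus strand, bases 1 to 30: GGACtacgattggctgcttgctcttcagct
Gstm6, chr3:107943705-107943734, minus strand, bases 1 to 30: agagcagctccGGACctgttctcagactca
Sult1a1, chr7:126676389-126676418, minus strand, bases 1 to 30: cccacttgGGACacaaaatctccagctcaa
Nat8f1, chr6:85915603-85915632, minus strand, bases 1 to 30: accgctagaagctgctggcggaGGACaagg
Ugt1a5, chr1:88166032-88166061, plus strand, bases 21 to 50: gcgcatccactgaagtgactatgGGACtcc
Ugt1a1, chr1:88211959-88211988, plus strand, bases 1 to 30: agcttgagtagatctctggcagcatcagag
Ugt1a9, chr1:88070779-88070808, plus strand, bases 1 to 30: agaaaatcttgcagtcatagtgacaggatt
Ugt2a3, chr5:87337166-87337195, minus strand, bases 1 to 30: aatctttgcgaaacaacttgaggaggcaca

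RefSeq windows were found for 31 of the 36 enzyme genes with a peak. A peak of either genotype covered part of the first 50 transcribed bases of 22 windows, which belonged to 20 genes. Of these 22 windows, 6 held GGAC in the sense of the RNA within the first 50 bases (27.3%), against 18.9% of all 32851 windows. The core lay at base 1 of Gstk1, base 4 of Ugt2b5, base 9 of Sult1a1, base 12 of Gstm6, base 23 of Nat8f1 and base 44 of Ugt1a5. In Ugt2b5 both peaks began at base 23, past the core. In Gstk1 the Wtap-HKO peak began at base 1 and the Wtap flox/flox peak at base 31, so that the core was inside the peak of Wtap-HKO livers. A match is a description of the letters and not a mapped site.

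RefSeq lists 80 protein-coding genes with these prefixes, and 44 of them had no row in any list. UDP-glucuronosyltransferases were widely covered. Of their 19 genes 14 had a peak, and the lists held 22 of their peaks for Wtap flox/flox and 18 for Wtap-HKO livers. Ugt1a2, Ugt1a8, Ugt1a10, Ugt2a1 and Ugt2a2 had none. Ugt3a1 and Ugt3a2, which encode UDP-glycosyltransferases, had 3 peaks in each genotype.

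Glutathione S-transferases were less covered, with 10 of 25 genes. No peak was listed for Gsta1, Gsta2 and Gsta4, for Gstm1 to Gstm5, or for Gstp1, Gstp2 and Gstp3. The class had 9 peaks in each genotype, but not in the same genes. Of the 21 sulfotransferase genes 3 had a peak. They were Sult1a1, a phenol sulfotransferase, Sult1d1, which sulfates catecholamines, and Sult2a8, which sulfates bile acids. Among the N-acetyltransferases, Nat1 and Nat2, Nat10 and Nat14, and 3 of the 9 Nat8 genes had peaks. A gene without a peak may be unmethylated or may have had too few reads, among other possibilities, and the lists cannot separate these. The starts of Gsta1 and Gsta2 matched at 28 of 30 bases, and whether reads of near copies were lost was not tested.

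**Figure D1:**
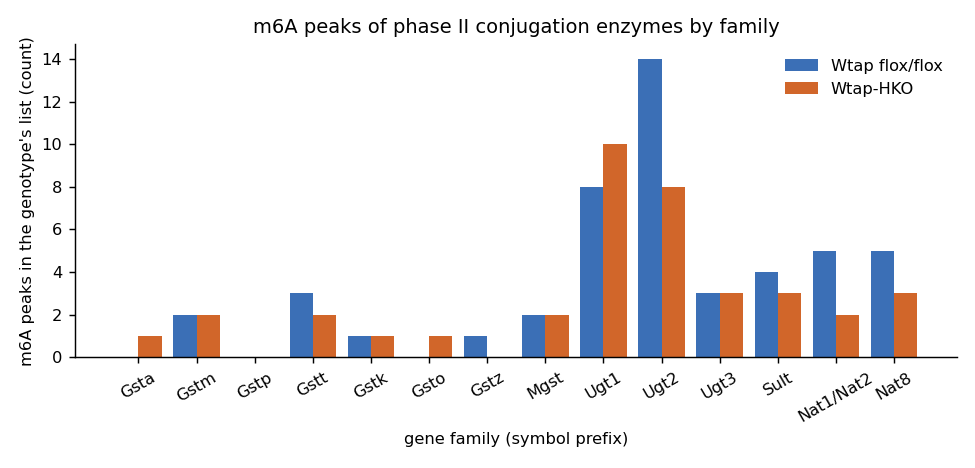
Number of m6A peaks (y axis, count) in the list of each genotype for each family of conjugation enzymes (x axis, symbol prefix). Ugt2 had 14 peaks in Wtap flox/flox livers and 8 in Wtap-HKO livers, Ugt1 had 8 and 10, and Gstp had none in either.

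The enrichment of these peaks, the authors' linear ratio of IP over input, was modest. Its median was 3.51 in Wtap flox/flox (quartiles 2.34 to 5.19, range 1.61 to 16.7), against 5.51 for all peaks of that list. In Wtap-HKO livers it was 4.07 (quartiles 2.96 to 7.30, range 1.48 to 31.6), against 5.93 for all peaks. The highest values belonged to Nat14 (16.7) and Gstt2 (12.3) in Wtap flox/flox and to Ugt1a7c (31.6) and Gsta3 (10.4) in Wtap-HKO livers. The deposited log10 false discovery rates of these 4 peaks were -3.38, -7.53, -15.7 and -26.7 in that order. Many enzyme peaks of lower enrichment had lower rates. None of these 4 peaks shared a base with a peak of the other genotype. Among the Ugt1 genes of Wtap flox/flox livers the highest value was 11.3, in Ugt1a6b. Among the Ugt2 genes it was 9.22 for Wtap flox/flox, in Ugt2b5, and 9.0 for Wtap-HKO, in Ugt2b36. The Ugt3 genes reached 4.64 in Ugt3a1 of Wtap flox/flox livers and 4.04 in Ugt3a2 of Wtap-HKO livers. Sulfotransferases reached 4.42 in Sult2a8 and 6.96 in Sult1a1, and the Nat8 genes 4.0 in Nat8f4 and 7.92 in Nat8f1, in the same order of genotypes. In each of these families but Ugt1, then, the top value of either genotype was below 10, and it belonged to different genes.

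The peaks of the enzymes lay nearer the 5′ end of the gene span than all peaks did. Within 200 nt of the 5′ end of the RefSeq gene span lay 16 of 48 peaks in Wtap flox/flox (33.3%, 95% Wilson interval 21.7 to 47.5) and 18 of 38 in Wtap-HKO (47.4%, 32.5 to 62.7). For all placed peaks the shares were 10.7% and 18.2%. Within 200 nt of the 3′ end lay 2 and 1 enzyme peaks (4.17% and 2.63%), against 10.03% and 8.25% of all peaks. The midpoint of the median enzyme peak stood at 42.0% of the gene span in Wtap flox/flox and at 4.02% in Wtap-HKO, against 84.8% and 75.8% for all peaks. The span counts introns, and each Ugt1a span runs from its own start to the shared 3′ exons described below. Peaks near those starts therefore stand at low percentages of the span. The intervals describe counting error alone, and peaks of 1 gene are not independent of each other.

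**Figure D2:**
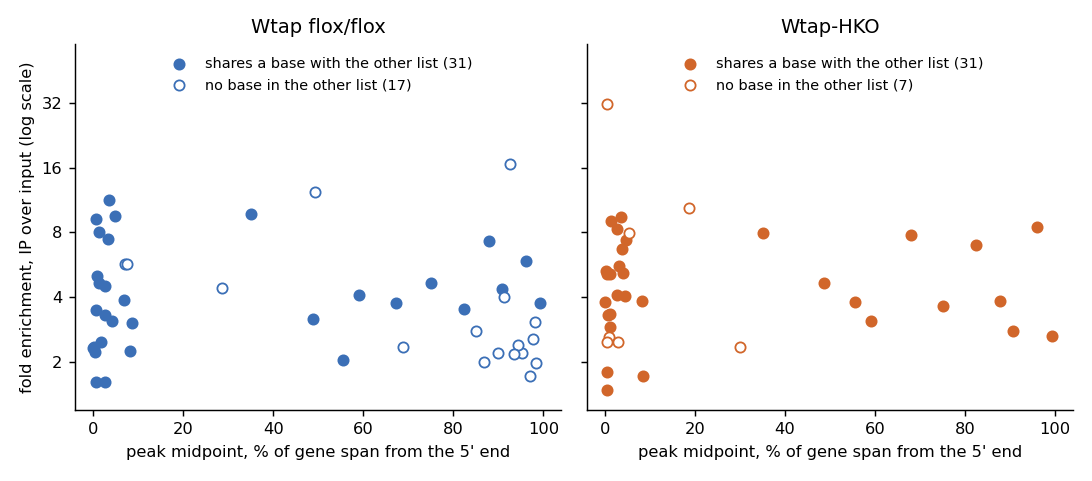
Fold enrichment (y axis, IP over input, log scale) of each peak of a conjugation enzyme against its midpoint along the gene span (x axis, percent from the 5′ end), for Wtap flox/flox (left) and Wtap-HKO (right). Filled points share at least 1 exonic base with a peak of the other genotype (31 in each), and open points do not (17 and 7). The open points of Wtap flox/flox gather beyond the midpoint of the span, where 13 of 17 lie (76.5%), near the 79.9% of all unshared peaks of that list. None of the 7 of Wtap-HKO lie there, against 47.2% of all unshared peaks.

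Most peaks recurred in the other genotype. In Wtap flox/flox, 31 of 48 peaks (64.6%, 50.4 to 76.6) shared at least 1 exonic base on the same strand with a Wtap-HKO peak, against 80.1% of all peaks. In Wtap-HKO, 31 of 38 (81.6%, 66.6 to 90.8) did, against 64.7% of all peaks. At the level of genes, 25 enzymes had peaks in both lists, 7 only in Wtap flox/flox (19.4%) and 4 only in Wtap-HKO (11.1%). Over all genes with a peak these shares were 7.99% and 21.96%. An absent row means that no peak was called, not that methylation was 0.

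The 7 enzymes with peaks in Wtap flox/flox alone were Gstt3, Gstz1, Nat1, Nat14, Nat8f4, Sult2a8 and Ugt2b38. Gstz1, which isomerises maleylacetoacetate in tyrosine breakdown, had 1 peak of 2.21, with its midpoint at 95.1% of the span. Sult2a8 had peaks of 2.56 and 4.42. Nat1 had 2 rows of 5.71 each that shared 112 nt, and they are in effect 1 peak. Nat8f4 had a peak of 4.0, Ugt2b38 of 3.06 and Gstt3 of 2.20. Apart from those of Nat14 and Nat1, no value in this group was above 4.42, and most of the peaks lay beyond the midpoint of the gene.

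The 4 enzymes with peaks in Wtap-HKO alone were Gsta3, Gsto1, Gstt1 and Sult1d1, and each peak lay near the 5′ end. Gsta3, an alpha-class transferase that conjugates aflatoxin epoxide in mice, had a peak of 10.4 in 3 exonic blocks on chromosome 1 from 21240619 to 21249825. Its edge lay 34 nt from a RefSeq start. Gsto1, an omega-class enzyme that reduces dehydroascorbate, had a peak of 2.60, Gstt1 one of 2.49 and Sult1d1 one of 2.47. Those of Gsto1, Gstt1 and Sult1d1 stood no higher than percentile 10.7 of their list, while that of Gsta3 stood at percentile 73.0.

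Position was therefore described together with sharing. A peak is called 5′ here when an edge lay within 200 nt of the 5′ end of the gene span or of a RefSeq transcript start of the gene, and inner otherwise. Of the 17 peaks of Wtap flox/flox that shared no base with Wtap-HKO, 2 were 5′, and both were the overlapping rows of Nat1. The Sult2a8 peak of 4.42 also covered a RefSeq start, from base 1. Its nearest edge lay 1640 nt from a start, so the rule counted it as inner. Of the 7 peaks of Wtap-HKO without a counterpart, 5 were 5′. Over all placed peaks the same shares were 5.27% of 2639 in Wtap flox/flox and 34.8% of 5929 in Wtap-HKO. In the enzymes and in the whole lists alike, unshared 5′ peaks were the more frequent in Wtap-HKO.

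Fold enrichment was compared in peaks that overlapped 1 to 1 and carried the same gene identifier. There were 28 such pairs in 23 enzymes, of 10805 in all. The median log2 ratio of Wtap-HKO over Wtap flox/flox was 0.08 for the enzymes (quartiles -0.41 to 0.77, range -1.49 to 1.35) and 0.01 for all pairs (quartiles -0.59 to 0.66). A log2 ratio above 1 was found in 2 enzyme pairs, against 14.8% of all pairs, and a ratio below -1 in 1 enzyme pair, against 12.4% of all pairs. At a threshold of 0.5 the enzymes had 12 higher pairs and 6 lower pairs, against 30.6% and 28.1% of all pairs.

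Gstk1 and Gstm6 were the 2 higher pairs, and both are glutathione S-transferases. Gstk1 (ENSMUSG00000029864), the kappa-class enzyme of mitochondria and peroxisomes, showed an enrichment of 1.61 in Wtap flox/flox livers and of 4.10 in Wtap-HKO, 2.55 times higher (log2 1.35). The peak covered 181 nt on chromosome 6 from 42245965 to 42246145 in Wtap flox/flox, and 241 nt from 42245935 to 42246175 in Wtap-HKO. Gstm6, a mu-class enzyme, had 3.74 and 7.78 (log2 1.06). Its peaks covered the start printed above, which lies within the gene, and stood near 67.7% of the span. The mu-class neighbour Gstm7 had 2.26 and 3.86 (log2 0.77), and the inner peak of Gstt2, a theta-class enzyme, had 2.05 and 3.82 (log2 0.90). All 4 pairs of glutathione S-transferases had the higher value in Wtap-HKO, as did 5416 of all 10805 pairs. Those of Gstk1, Gstm6 and Gstm7 were 5′ pairs, and 1483 of all 1755 5′ pairs were higher.

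Other glutathione S-transferase peaks could not be paired 1 to 1. Mgst1, the microsomal transferase, had 2 peaks of 3.30 and 3.90 in Wtap flox/flox, where Wtap-HKO had a single peak of 6.69 over both. Gstt2 had a second Wtap flox/flox peak of 12.3 over 239 nt on chromosome 10 from 75834558 to 75834796, at percentile 82.6 of its list, where Wtap-HKO had no peak. The inner pair of Gstt2 was thus higher in Wtap-HKO, and its second peak was called in Wtap flox/flox alone.

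Ugt2b5 was the lower pair. Ugt2b5 (ENSMUSG00000054630), a glucuronosyltransferase of the steroid and bile acid family, showed an enrichment of 9.22 in Wtap flox/flox (181 nt, chromosome 5, 87140138 to 87140318) and 3.29 in Wtap-HKO (151 nt). The value was 2.80 times higher in Wtap flox/flox (log2 -1.49), and its percentile within the list went from 73.0 to 20.3. This peak had no row in the list of differing peaks. A weaker peak of Ugt2b5 near the 3′ end, of 1.97, was found only in Wtap flox/flox and did have a row there.

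**Figure D3:**
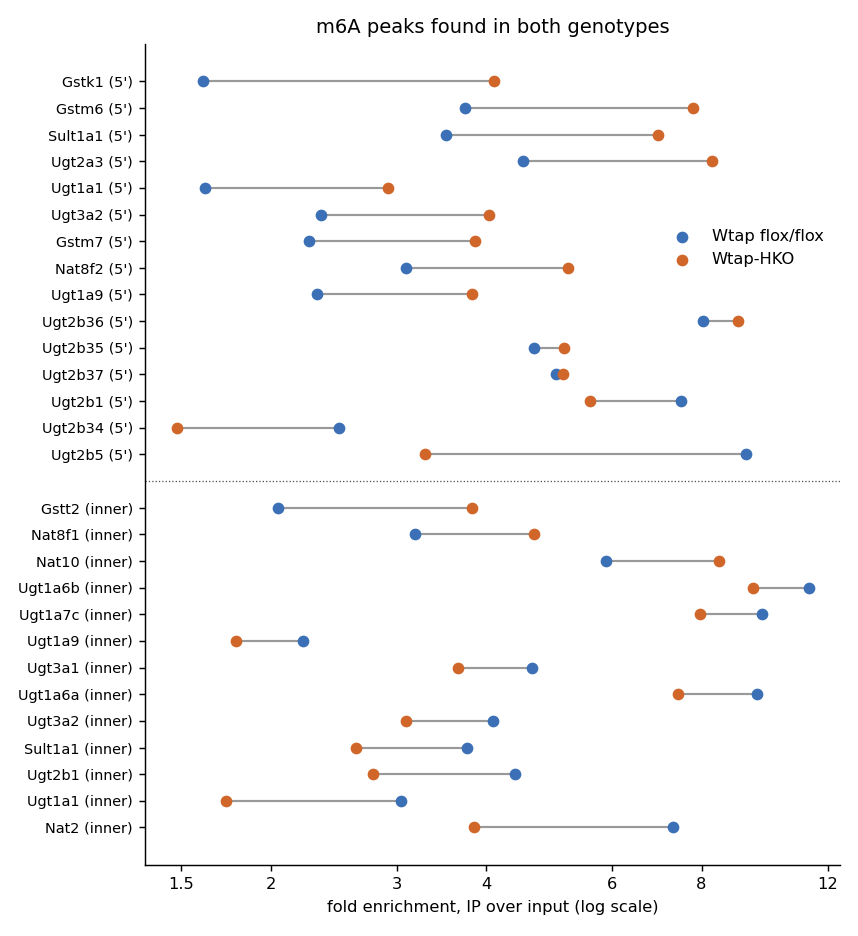
Fold enrichment (x axis, IP over input, log scale) of the 28 peak pairs of conjugation enzymes in Wtap flox/flox (blue) and Wtap-HKO (orange), with 5′ peaks above the dotted line and inner peaks below it, ordered by the log2 ratio. The orange point lies to the right in 12 of the 15 5′ pairs and to the left in 10 of the 13 inner pairs. Over all genes, 1483 of 1755 5′ pairs were higher and 4635 of 7998 inner pairs lower in Wtap-HKO.

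The position of the pair sorted the ratios. The 15 enzyme pairs at the 5′ end had a median log2 ratio of 0.75, with 12 higher in Wtap-HKO, and the 13 inner pairs a median of -0.35, with 10 lower. All pairs did the same, with a median of 0.80 for 1755 5′ pairs and -0.16 for 7998 inner pairs. Of those 5′ pairs 1483 were higher in Wtap-HKO, and of those inner pairs 4635 were lower. The inner peaks of the enzymes were also shorter in Wtap-HKO in 12 of 13 pairs (92.3%), against 49.3% of all inner pairs. Their median length was 331 nt in Wtap flox/flox livers and 239 nt in Wtap-HKO. The inner pairs named Ugt1a6a and Ugt1a7c are 1 signal under 2 names, as described below. Both were lower and shorter in Wtap-HKO, and each is counted in these numbers.

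**Figure D4:**
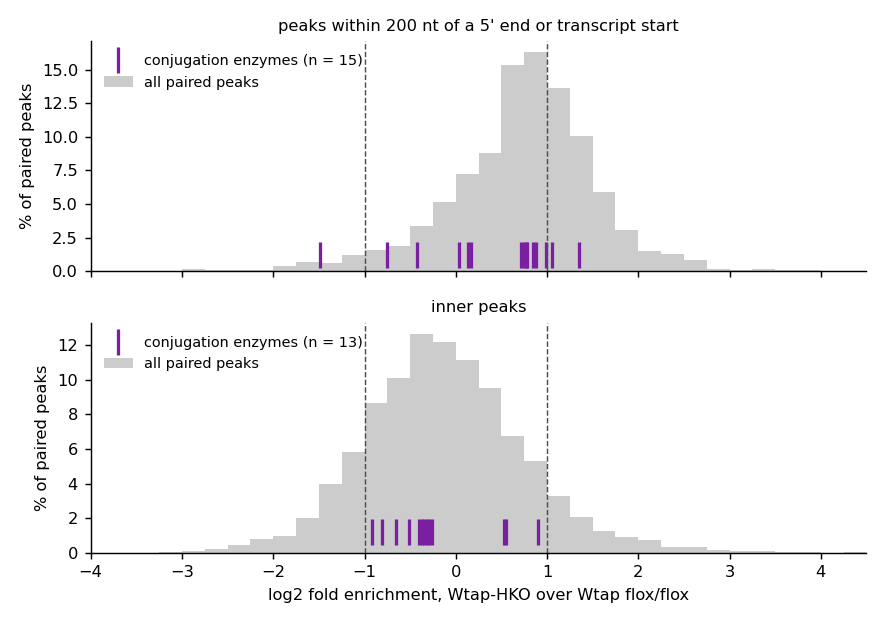
Distribution of the log2 ratio of fold enrichment, Wtap-HKO over Wtap flox/flox (x axis), for all paired peaks (grey bars, percent of pairs in bins of 0.25) and for conjugation enzymes (purple marks, 1 per pair), at the 5′ end (top, 15 enzyme pairs) and inside genes (bottom, 13). Dashed lines mark log2 ratios of -1 and 1. The enzyme medians of 0.75 and -0.35 lie close to those of all pairs, 0.80 and -0.16.

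Both directions occurred within single genes. Of the 5 enzymes with a 5′ pair and an inner pair, all had the higher ratio at the 5′ end, as did 725 of 880 genes of the whole lists (82.4%). In 4 of the 5 the 5′ peak was higher and the inner peak lower in Wtap-HKO, against 55.1% of the 880 genes. In Ugt1a1, the enzyme that conjugates bilirubin, the 5′ peak went from 1.62 in Wtap flox/flox to 2.92 in Wtap-HKO (log2 0.85), and the peak 534 nt from the start from 3.04 to 1.73 (log2 -0.81). In Ugt1a9, which conjugates phenols, the 5′ peak had 2.32 and 3.82 (log2 0.72) and the inner peak 2.22 and 1.79 (log2 -0.31). In Sult1a1 the 5′ peak had 3.52 and 6.96 (log2 0.98) and the peak at the 3′ end 3.76 and 2.63 (log2 -0.52). That 5′ peak of Sult1a1 lay 14 nt from a RefSeq start within the gene, at 82.5% of the span. In Ugt3a2 the values were 2.35 and 4.04 at the 5′ end (log2 0.78) and 4.09 and 3.09 inside the gene (log2 -0.40). Ugt2b1 was the exception in direction, with the lower value in Wtap-HKO at the 5′ end (7.48 and 5.58, log2 -0.42) and inside (4.39 and 2.78, log2 -0.66).

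The Ugt2b genes had the lower ratios among the 5′ pairs. This split was seen in the values and has no test. The 6 Ugt2b pairs at the 5′ end had log2 ratios of -1.49 to 0.16, with 3 higher and 3 lower in Wtap-HKO. The other 9 enzyme pairs at the 5′ end ran from 0.72 to 1.35, all higher, as were 1483 of all 1755 5′ pairs. The 2 ranges did not overlap, but the groups were drawn after the values were seen, with Ugt2a3 placed among the 9. Ugt2b34 went from 2.49 over 570 nt to 1.48 over 151 nt (log2 -0.75). Ugt2b35 had 4.67 and 5.14 (log2 0.14), Ugt2b36 had 8.04 and 9.0 (log2 0.16), and Ugt2b37 had 5.01 and 5.12 (log2 0.03). These 3 genes were nearly level between the genotypes. Ugt2a3, of the same chromosome 5 cluster but of the Ugt2a subfamily, had 4.51 and 8.28 over the same 657 nt (log2 0.88). Of the Ugt2 peaks found in Wtap flox/flox alone, those of Ugt2b34 (1.73 and 2.17), Ugt2b35 (2.79 and 2.0), Ugt2b5 (1.97) and Ugt2b38 (3.06) had midpoints between 84.9% and 98.4% of the span, and accounted for the fall from 14 to 8 peaks.

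Values of the Ugt2b genes carry an uncertainty of their own. The starts of Ugt2b5 and Ugt2b37 are near copies, and the best ungapped match of 30 bases between their first 50 is printed with the differing base in capitals.
Ugt2b5, chr5:87140295-87140324, minus strand, bases 17 to 46: aggattttgattttcaAgatgcctggaaag
Ugt2b37, chr5:87254759-87254788, minus strand, bases 1 to 30: aggattttgattttcaGgatgcctggaaag
They differed at 1 of 30 bases, and the start of Ugt2b38 matched that of Ugt2b37 at all 30. Of 384 comparisons between starts of genes of a family, 7 had at least 27 of 30 bases identical. Reads of 150 bp are longer than these stretches, and identity over whole reads or peaks was not compared. Whether reads were placed on the wrong copy was not tested, so the split between Ugt2b5 (log2 -1.49) and Ugt2b37 (log2 0.03) stays uncertain.

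The Ugt1a genes share 3′ exons, and their first exons lie in a row on chromosome 1, with 9 genes in RefSeq. Their 8 peaks in Wtap flox/flox livers and 10 in Wtap-HKO ended at or before position 88212819. The span common to the 9 genes runs from 88211959 to 88218998, and no peak lay in its last 6179 nt (87.8%), which hold the shared 3′ exons. Gene names also overlapped in this locus. The Ugt1a6a peak (9.56 and 7.41, log2 -0.37) and the inner peak named Ugt1a7c (9.72 and 7.95, log2 -0.29) covered the same bases, 480 nt in Wtap flox/flox livers and 271 nt in Wtap-HKO, and count as 1 signal. Ugt1a6b, the near copy of Ugt1a6a, had 11.3 and 9.44 (log2 -0.26). These phenol-conjugating Ugt1a6 genes kept their enrichment above 7 in both genotypes.

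The peak with the highest fold enrichment of any enzyme lay in Ugt1a7c (ENSMUSG00000090124) and was called only in Wtap-HKO. It had a fold enrichment of 31.6 over 509 nt, on chromosome 1 from 88095451 to 88095959, at percentile 94.2 of its list and 450 nt from the RefSeq start. It had a row in the list of differing peaks. Ugt1a5 had 1 peak of 3.49 over 775 nt in Wtap flox/flox, which Wtap-HKO covered with 2 peaks of 5.31 and 3.34. The piece at the start had the higher value.

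The remaining pairs were those of the acetyltransferases and of Ugt3a1. Nat2, an arylamine N-acetyltransferase, had 7.30 in Wtap flox/flox livers and 3.85 in Wtap-HKO (log2 -0.92), over 925 and 836 nt. Its percentile within the list went from 63.7 to 27.7. Nat8f1 and Nat8f2, acetyltransferases of the endoplasmic reticulum, went the other way, with 3.18 and 4.67 (log2 0.55) and with 3.09 and 5.20 (log2 0.75). Nat8f1 also had a peak of 7.92 over its start in Wtap-HKO alone and one of 2.39 near its 3′ end in Wtap flox/flox alone, and Nat8f2 had an inner peak of 2.35 in Wtap flox/flox alone. Nat10 had 5.88 and 8.46 (log2 0.52). Ugt3a1 had 4.64 over 331 nt and 3.65 over 121 nt (log2 -0.35).

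Of the 36 enzymes with a peak, 18 had a row in the list of differing peaks (50%), against 27.8% of all genes with a peak. Among genes with peaks in both lists the shares were 13 of 25 (52.0%) and 33.6%. The list was made from the same comparison, so this is a count and not a separate result. Of the 25 enzyme rows, 15 lay over peaks of both genotypes, 6 over a Wtap flox/flox peak only and 4 over a Wtap-HKO peak only (60%, 24% and 16%), near the 65.8%, 17.9% and 15.4% of all rows. By the deposited fold enrichments, 11 rows were higher in Wtap-HKO or found there alone, 13 were lower or found in Wtap flox/flox alone, and 1, that of Gstt2, spanned peaks of both kinds. Over all genes 1497 rows were on the higher side and 2251 on the lower side.

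These rows fell along the gene as the pairs did. Of the 11 rows on the higher side, 10 were 5′ (90.9%), against 55.0% of such rows over all genes. They were the rows of Gsta3, Gstk1, Gstt1, Nat8f2, Sult1a1, Sult1d1, Ugt1a1, Ugt1a9, Ugt2b35 and Ugt3a2, and the inner one was that of Ugt1a7c. Of the 13 on the lower side, 11 were inner and 2 were 5′ (15.4%, against 2.77% over all genes). The 2 were those of Ugt2b34 and Nat2, and the row of Nat2 reached from near the start to the far end of the gene. The inner rows were those of Gstz1, Nat8f2, Nat8f4, Sult1a1, Ugt1a1, Ugt1a6a, Ugt1a7c, Ugt1a9, Ugt2b34, Ugt2b35 and Ugt2b5. Sult1a1, Ugt1a1, Ugt1a9, Nat8f2, Ugt1a7c and Ugt2b35 thus had a row on each side. The lower row of Ugt1a7c covered the bases of the Ugt1a6a row, so these rows count as 1 signal. The higher row of Ugt2b35 lay over a nearly level pair (4.67 and 5.14, log2 0.14).

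Other genes of the pathway were counted from a list of 48. Of these 40 had a peak in either genotype and 22 a row in the list of differing peaks, against 27.8% of all genes with a peak. Among their 50 pairs, 11 were above a log2 ratio of 1 and 5 below -1, against 14.8% and 12.4% of all pairs, with a median of 0.00. Among genes that supply co-substrates, Gclc, the catalytic subunit that makes the glutathione precursor, had 4.42 in Wtap flox/flox livers and 10.1 in Wtap-HKO (log2 1.19). Ugp2, which makes UDP-glucose, had 2.34 and 4.46 (log2 0.93). Slc35d1, a transporter of UDP-glucuronic acid, had a 5′ peak of 5.97 and 14.7 (log2 1.30) and a 3′ peak of 4.02 and 1.97 (log2 -1.03), the 2 directions seen in the enzymes. Slc35b2, which carries the sulfate donor into the Golgi, had 6.26 and 3.31 (log2 -0.92). Slc35b3, another carrier of the sulfate donor, had a row elsewhere in the gene and a pair of 7.94 and 9.24 (log2 0.22).

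Among other conjugating enzymes, those with differing rows and higher pairs were Inmt, a methyltransferase of amines (4.35 and 10.6, log2 1.28), Slc27a5, the bile acid ligase (2.11 and 4.61, log2 1.13), and Acsm3, a medium-chain ligase (1.63 and 4.31, log2 1.40), and Hnmt, which methylates histamine (3.47 and 7.41, log2 1.09). Those with lower pairs were As3mt, which methylates arsenic (5.32 and 1.97, log2 -1.43), Baat, which joins bile acids to taurine (8.04 and 5.26, log2 -0.61), and Glyat, which joins glycine to benzoate (6.55 and 5.28, log2 -0.31). The rows of Hnmt and Glyat lay away from these pairs. Acsm3 also had Wtap flox/flox peaks of 2.40 and 17.6 outside its pair, while Wtap-HKO had only the peak of 4.31. The higher pairs of Inmt, Slc27a5 and Acsm3 were 5′ pairs, and that of Hnmt was inner. Of the lower pairs, As3mt lay at 98.6% of the span and Baat at 96.5%, but Glyat was a 5′ pair. Ephx1, the epoxide hydrolase that acts ahead of glutathione conjugation, had 2.98 and 6.01 (log2 1.01), and Arsa, which removes sulfate, had 6.37 and 2.40 (log2 -1.41) in its differing pair.

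Among 10 regulators of these enzymes, all with peaks in both lists, 5 had a row in the list of differing peaks. The share was 27.8% of all genes with a peak and 33.6% of genes with peaks in both lists. The 10 regulators held 21 pairs. Ahr, the receptor for dioxin and related ligands, had 16.9 and 6.08 (log2 -1.47). Hnf4a had 5.12 and 11.5 in its first pair (log2 1.17) and 3.79 and 1.95 near the 3′ end (log2 -0.96). Nfe2l2, the regulator of the response to electrophiles, had a pair of 9.77 and 6.19 (log2 -0.66) and a second pair at log2 -0.74. The row of Nfe2l2 lay away from both pairs. Rxra had 15.1 and 97.3 at the 5′ end (log2 2.69), where no row was listed. The Rxra pairs with rows were nearer to level (log2 -0.36 and 0.18), and that of Cebpa had 1.76 and 1.42 (log2 -0.31). Of the 6 exporters of conjugates, 3 had peaks, and Abcc2 had 3.91 and 9.40 in its 5′ pair (log2 1.26).

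The lists hold no RNA levels and so could not check the deletion or the tissue. Wtap had 3 peaks in each genotype, at 8.06 to 20.7 in Wtap flox/flox and 4.47 to 20.6 in Wtap-HKO, and 1 row in the list of differing peaks. Of 8 hepatocyte markers 5 had a peak, and Tf, Cps1 and Serpina1a had none. The hepatocyte marker pairs ran from log2 -1.01 to 1.17 with a median of 0.10 (7 pairs). Pairs of Kupffer cell markers had a median of 0.61 (4 pairs), of endothelial markers 0.60 (4), and of stellate cell markers 1.21 (3), and the single cholangiocyte pair, in Sox9, had -0.69. The Kupffer cell pairs lay in Clec4f and Cd5l alone and ran from log2 -0.05 to 0.72. The stellate cell pairs lay in Lrat and Colec11 alone. Adgre1, Stab2, Krt19 and Krt7 had no peak, and Marco, Dcn and Epcam had peaks in Wtap-HKO alone. The part of these cell types in the values of the enzymes was not tested.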

How the data were processed

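m6ARIP-seq was analysed from 3 deposited peak lists of mouse liver (2 IP and 2 input libraries for each of the genotypes Wtap flox/flox and Wtap-HKO). Per the labels and the study's methods, 150 bp paired-end reads were cleaned with fastp 0.19.11 and aligned to GRCm38 (Ensembl 92) with BWA 0.7.12, and peaks were called with exomePeak 2.16.0. HOMER 4.9.1 is also named. The fold enrichment that the authors deposited is the ratio of IP to input on a linear scale, with replicates combined, and the deposited log10 false discovery rate is a score of their peak caller. Every peak in a list was used. The list of differing peaks also holds the authors' own fold changes, p-values and false discovery rates between the genotypes. They were not used, and only the position and gene of its rows were. Read depth is unknown.

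Peaks were compared by exonic bases on the same strand and paired where 1 peak of each genotype overlapped with the same gene identifier (Python 3.11.15, pandas 2.3.3, numpy 2.4.6). A pair was counted as higher or lower past a log2 ratio of 1. Positions are 1-based and gene spans, starts and sequences are those of RefSeq on GRCm38.p6. Exon and UTR annotation was not used here. Genes were named where they had a row among the differing peaks, a pair past the threshold, the highest value of a family, or peaks in 1 list only. The remaining pairs and the span of shared loci were added after the values were seen. The enzymes, the gene lists and the tests were chosen with earlier results of these data known. The computation was tested on simulated peaks. A planned comparison of protein sequences between paralogues and a motif search inside peaks were not run. One gene of the pathway list is not reported here by name.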

Additional observations from a re-analysis of the deposited data

How the results depend on the processing

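The counts of enzyme peaks, the shares shared between the genotypes and the rows among the differing peaks stayed within 1.5 times (counts) or inside the 95% interval (shares) under the alternatives run, except as follows. With the threshold on the log2 ratio at 0.5, 12 pairs were higher and 6 lower in Wtap-HKO. The median of the enzyme pairs was 0.08 as a log2 ratio but -1.44 percentile points as a shift of rank within each list, with -3.41 for all pairs, so its sign turned. The share of Wtap flox/flox peaks near the 3′ end was 16.7% within 500 nt, and the share of Wtap-HKO peaks near the 5′ end was 63.6% when measured from the nearest RefSeq start, an alternative added after the data were seen. The median of the 5′ pairs was 0.44 when the 5′ end of the gene span alone was used (12 pairs). Centring on all pairs, a 50% overlap (27 pairs), leaving out peaks in the span of another enzyme (21 pairs), pairing whatever the gene identifier (26 pairs) and leaving out Nat10 and Nat14 left the 2 higher and the 1 lower pair in number. Leaving out a replicate was not possible, since the lists hold combined replicates. No paired analysis was possible because no list holds values per library. Depth is unknown, so a missing peak sets no limit on methylation.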
